A study of Mus musculus with 9 samples.

Results

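The immunoglobulin genes described here are the 170 heavy, kappa and lambda chain gene segments that were expressed in mouse colonic tissue at a mean of at least 1 FPKM, a fragment count scaled for gene length and library depth, over 9 RNA-seq libraries. They were chosen by name, as constant genes (Igha, Ighd, Ighe, Ighm, the Ighg genes, Igkc and the Iglc genes) and numbered variable, diversity and joining segments, and then by that mean level. Of 55401 entries in the table, 395 carried such a name and 170 reached the level. The members comprised 11 constant genes, 10 joining segments and 149 variable segments, of which 73 lay in the heavy, 88 in the kappa and 9 in the lambda locus. All 9 libraries were labelled as colonic tissue of wild-type (WT) mice, with 3 libraries in each of 3 groups. The chow group received a chow diet and AOM/DSS, and the high-fat diet group received a high-fat diet and AOM/DSS, AOM usually being azoxymethane, a carcinogen, and DSS being dextran sulfate sodium, which causes colitis. The third group is labelled only as berberine, a plant alkaloid, so its diet and any AOM/DSS are not stated. Age, sex and whether each library came from its own animal are not stated either, so the p-values measure the spread between these libraries, which may be technical.

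An antibody is built of paired heavy and light chains, and each chain joins a variable region to a constant region. In a developing B cell, recombination joins a variable and a joining segment, with a diversity segment between them in the heavy chain, and the light chain is taken from the kappa or the lambda locus. The heavy constant gene sets the class: Ighm and Ighd serve the IgM and IgD of naive B cells, and switching brings in an IgG gene, Ighe or Igha. Plasma cells of the gut mostly secrete IgA, which the J chain (Jchain) links into dimers and the receptor Pigr carries through the epithelium. In mice most light chains are kappa, and the lambda locus holds few segments.

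The sequences that the results turn on are printed from the GENCODE M21 transcripts on GRCm38, from 5′ to 3′ on the gene's own strand. Iglv1 (chr16:19085024-19085320, minus strand) and Iglv2 (chr16:19260408-19260704, minus strand) are shown because both rose in the comparison of berberine with high-fat diet. The remaining lambda variable member, Iglv3, rose there as well. The variable exons of Iglv1 and Iglv2 are 305 bases long and differed at 9 bases, which are in capitals. The 297 bases from the first to the last of these are printed.
Iglv1: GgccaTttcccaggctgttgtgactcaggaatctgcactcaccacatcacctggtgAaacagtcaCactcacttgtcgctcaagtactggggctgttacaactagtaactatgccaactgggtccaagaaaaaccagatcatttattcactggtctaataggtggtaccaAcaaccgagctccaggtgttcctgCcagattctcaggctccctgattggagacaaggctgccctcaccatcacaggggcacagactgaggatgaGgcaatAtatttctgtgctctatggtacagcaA
Iglv2: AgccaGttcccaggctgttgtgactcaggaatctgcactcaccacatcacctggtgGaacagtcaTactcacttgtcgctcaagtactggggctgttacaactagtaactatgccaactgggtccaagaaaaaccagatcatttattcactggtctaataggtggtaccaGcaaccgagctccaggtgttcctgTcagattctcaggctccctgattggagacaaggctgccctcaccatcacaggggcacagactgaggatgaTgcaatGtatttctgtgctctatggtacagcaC
Ighv1-62-2 (chr12:115446422-115446721, minus strand) is shown because it had the highest fold change among called segments whose groups did not overlap. Its variable exon of 313 bases, of which the first 300 are printed, had 0 differences from that of Ighv1-71 (chr12:115742218-115742517, minus strand). Reads from these exons cannot be assigned to either gene by sequence, so the levels of both are uncertain and are not independent results.
Ighv1-62-2: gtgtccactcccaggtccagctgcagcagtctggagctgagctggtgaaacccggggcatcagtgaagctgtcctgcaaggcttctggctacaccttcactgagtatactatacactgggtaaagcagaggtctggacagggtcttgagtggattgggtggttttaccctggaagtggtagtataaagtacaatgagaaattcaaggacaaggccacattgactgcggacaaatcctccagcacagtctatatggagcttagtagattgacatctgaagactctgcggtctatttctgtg

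The 10 joining segments are shown because they are short enough to compare as a class. Capitals mark the motif TNNGGNN followed directly by NNGGNAC, searched on the gene's strand, which covers the codons for tryptophan or phenylalanine followed by glycine, any residue and glycine that most joining segments share. It was found in 12 of the 14 joining segments named in the table, or 85.7%, and in 8 of the 10 members. On the minus strand lie Ighj3 at chr12:113429085-113429132, Ighj4 at chr12:113428514-113428567, Iglj1 at chr16:19063225-19063262, Iglj2 at chr16:19200198-19200235 and Iglj3p at chr16:19066371-19066408. On the plus strand lie Igkj1 at chr6:70722562-70722599, Igkj2 at chr6:70722916-70722954, Igkj3 at chr6:70723223-70723260, Igkj4 at chr6:70723548-70723585 and Igkj5 at chr6:70723886-70723923.
Ighj3: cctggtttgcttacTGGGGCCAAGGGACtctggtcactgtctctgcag
Ighj4: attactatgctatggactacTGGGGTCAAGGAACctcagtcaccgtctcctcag
Igkj1: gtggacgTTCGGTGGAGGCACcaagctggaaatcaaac
Igkj2: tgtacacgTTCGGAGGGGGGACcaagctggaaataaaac
Igkj3: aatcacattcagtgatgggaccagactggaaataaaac
Igkj4: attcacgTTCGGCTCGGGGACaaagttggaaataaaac
Igkj5: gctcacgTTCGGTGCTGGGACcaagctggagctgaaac
Iglj1: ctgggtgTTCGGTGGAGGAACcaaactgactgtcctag
Iglj2: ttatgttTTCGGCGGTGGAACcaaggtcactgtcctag
Iglj3p: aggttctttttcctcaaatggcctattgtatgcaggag
Igkj3 and Iglj3p did not hold these letters.

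Of the 225 named rows that were not members, 128 had a count of 0 in every library and 97 had some count. None of the 20 diversity segments reached the level, and neither did Ighe, the IgE gene, or Iglc4. The members nearest above the threshold had means of 1.15 (Igkv4-62), 1.18 (Igkv11-125) and 1.20 FPKM (Ighv14-4), and the rows nearest below it had 0.981 (Igkv4-69), 0.974 (Ighv1-69) and 0.833 FPKM (Ighv1-23). A total of 143 members had counts in all 9 libraries, and no member was at 0 throughout a group. Annotated pseudogenes made up 7 of the members. In 8 members only 1 group had a mean of at least 1 FPKM. A member that reached the level through its highest group alone had to differ between groups, so counts and medians over the members are given as descriptions.

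Members took between 0.295% and 1.298% of all counts in a library. The shares were 0.295%, 0.480% and 0.843% in chow replicates 1 to 3, 0.416%, 0.498% and 0.306% with high-fat diet, and 1.16%, 1.298% and 0.995% with berberine. The 3 berberine libraries were therefore above the other 6, while the chow and high-fat diet libraries overlapped. Library totals ran from 51961764 to 69007117 estimated counts. In bulk tissue, fewer antibody-producing cells and less of their RNA per cell cannot be told apart.

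Berberine libraries had more RNA than high-fat diet libraries for 48 of the 170 members, and less for 0, at an adjusted p under 0.05 in edgeR's quasi-likelihood test over 14506 genes. In this comparison 15.8% of all tested genes were called higher and 14.9% lower. The members' median log2 fold change was 1.71 against -0.01 over all tested genes, and 161 members had a positive estimate. At an unadjusted p under 0.05 there were 80 of the 170 members, a share near the 42.3% of all tested genes. The 3 berberine libraries lay above all 3 high-fat diet libraries in 67 members, where 20.7% of all tested genes did so, and below them in 0, where 30.8% did so. Leaving out high-fat diet replicate 3 brought the count of called members to 25, of which 24 were higher and 1 lower (Igkv4-71, named for this reason). Without berberine replicate 1 it was 30, and without berberine replicate 2 it was 25, all higher. Over all tested genes, leaving out 1 library gave 2960 to 4740 calls in place of 4460. Igkv4-71 had a mean of at least 1 FPKM only with high-fat diet, so it became a member through the group where it is highest.

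Against chow, the high-fat diet libraries had more RNA for 1 member and less for 10, where 15.2% of all tested genes were called higher and 16.6% lower. The share of members called, 6.47%, was thus below the 31.8% over all tested genes. Their median log2 fold change was -0.50 against 0.00 over all tested genes, and 112 estimates were negative. At an unadjusted p under 0.05 there were 26 members, where 43.2% of all tested genes were. High-fat diet libraries lay wholly below chow in 17 of the 170 members and wholly above it in 3. Both were smaller shares than over all tested genes, where 18.0% lay below and 28.6% above. Leaving out chow replicate 2 or chow replicate 3 gave 7 called members, all lower, and leaving out high-fat diet replicate 3 gave 4 higher and 5 lower. Over all tested genes, leaving out 1 library gave 3573 to 4325 calls in place of 4613. The comparisons of high-fat diet with chow and of berberine with high-fat diet share the same 3 high-fat diet libraries, so they are not independent.

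Between berberine and chow, 0 members passed the threshold in edgeR, where 7 of 14506 genes did so (0.0414% of the tested genes higher and 0.00689% lower). At an unadjusted p under 0.05 there were 52 members, where 10.9% of all tested genes were. The median log2 fold change of the members was 1.17 against 0.00 over all tested genes, with 147 positive estimates. Berberine libraries lay wholly above chow in 60 of the 170 members, where 9.24% of all tested genes did so. They lay wholly below in 0, where 7.99% of all tested genes did so. DESeq2's Wald test on the same counts called 23 members, 22 higher and 1 lower (Igkv1-122). Over all 14506 genes that test called 380, of which 177 were higher and 203 lower. Without high-fat diet replicate 3, which enters this comparison through the shared estimate of spread, edgeR called 1 member, Iglv2.

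**Figure D1:**
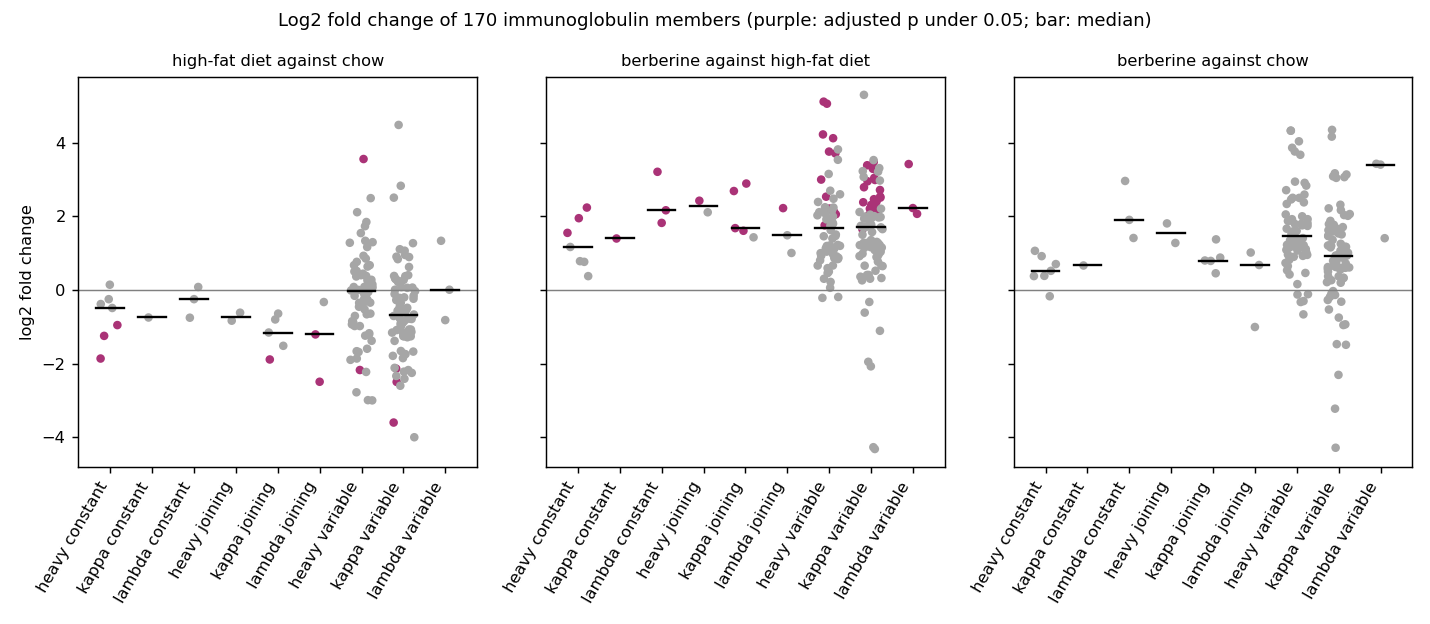
Log2 fold changes of the 170 members (y axis) in the 3 comparisons, by chain and kind of segment (x axis). Each point is a member, purple points passed an adjusted p of 0.05 in edgeR and bars are medians. In the comparison of berberine with high-fat diet, the 48 purple points all lie above 0, and in the comparison of berberine with chow there are none.

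Among heavy constant genes, Igha, the IgA gene (chr12:113254830-113260236, minus strand), had the highest level. It was at 425.2, 783.7 and 1348 FPKM in chow replicates 1 to 3, at 573, 809 and 606 FPKM with high-fat diet, and at 1710, 2088 and 1650 FPKM with berberine. Every berberine library was above the other 6, and the chow libraries enclosed those with high-fat diet. Igha rose between high-fat diet and berberine by a log2 fold change of 1.55 ± 0.39 (SE, adjusted p = 0.0167). Leaving out high-fat diet replicate 1 gave an adjusted p of 0.0552 and leaving out berberine replicate 2 gave 0.0546, so either ended the call. Against chow the estimate in berberine was 1.07 ± 0.38 (adjusted p = 0.389), and in high-fat diet -0.49 ± 0.38 (0.363).

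Ighm and Ighd, the IgM and IgD genes, were lower with high-fat diet than in either other group. Ighm was at 73.9, 57.8 and 113 FPKM in chow, at 58.9, 29.8 and 23.1 FPKM with high-fat diet and at 176, 125 and 103 FPKM with berberine. Berberine and high-fat diet did not overlap, whereas high-fat diet replicate 1 lay just above chow replicate 2. Ighm fell between chow and high-fat diet by a log2 fold change of -1.25 ± 0.37 (adjusted p = 0.0320) and rose between high-fat diet and berberine by 1.95 ± 0.38 (adjusted p = 0.00573). The fall was not called without chow replicate 1, chow replicate 3, high-fat diet replicate 2 or high-fat diet replicate 3 (adjusted p from 0.0566 to 0.101). Ighd was at 41.0, 29.0 and 74.2 FPKM in chow, at 21.9, 12.2 and 8.82 FPKM with high-fat diet and at 93.0, 54.6 and 42.6 FPKM with berberine. All 3 high-fat diet libraries were below the other 6. The log2 fold change of Ighd was -1.86 ± 0.44 for high-fat diet against chow (adjusted p = 0.0137) and 2.24 ± 0.45 for berberine against high-fat diet (adjusted p = 0.00677). The calls for Ighd and the rise of Ighm held when any 1 library was left out.

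The 4 IgG genes had the lowest mean levels of the constant genes. Ighg2b ran from 9.28 to 26.7 FPKM in chow, from 9.31 to 32.5 with high-fat diet and from 14.2 to 28.2 with berberine, and its groups overlapped in every comparison. Ighg3 ran from 7.03 to 26.6, from 3.95 to 25.1 and from 20.1 to 39.7 FPKM in the same order. Ighg2c ran from 2.43 to 5.28, from 1.19 to 4.83 and from 3.53 to 5.68 FPKM. None of these 3 genes passed the test in any comparison. Ighg1 was at 3.37, 5.38 and 7.32 FPKM in chow, at 4.08, 2.36 and 2.61 FPKM with high-fat diet and at 5.34, 4.32 and 4.91 FPKM with berberine. It fell between chow and high-fat diet by -0.95 ± 0.32 (adjusted p = 0.0487), but these groups overlapped and the call was lost when any of 7 libraries was left out, all but chow replicate 1 and high-fat diet replicate 1 (adjusted p from 0.0681 to 0.149).

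**Figure D2:**
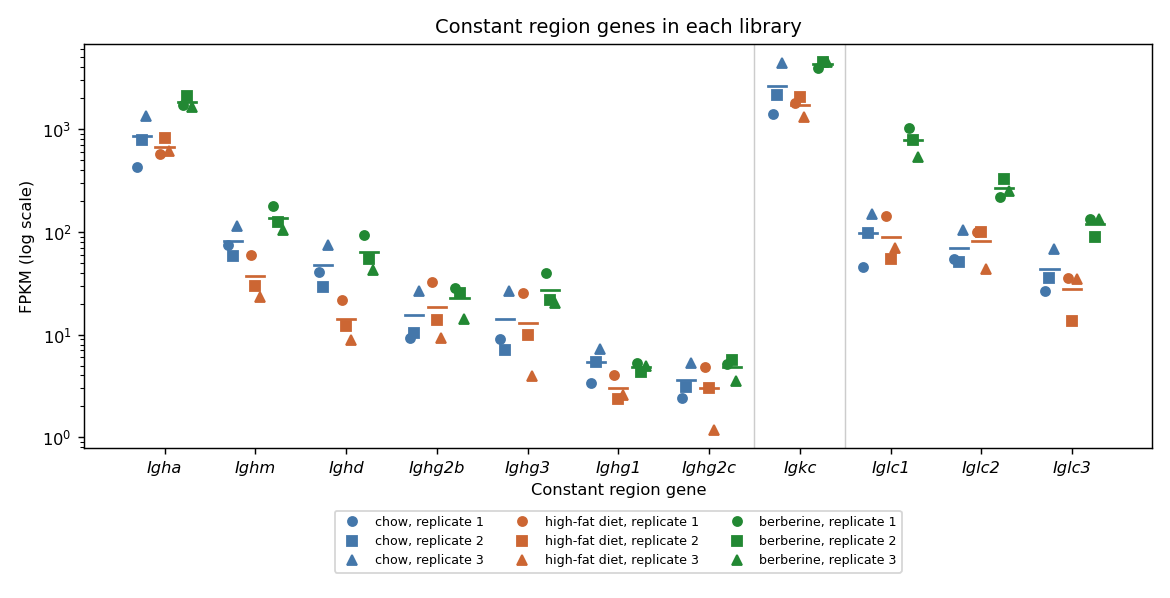
FPKM (log scale) of the 11 constant genes in each of the 9 libraries, with heavy chain genes at the left, Igkc in the middle and the lambda genes at the right. Symbols stand for replicate numbers and bars for group means. The berberine libraries lie above all others for Igha, Iglc1, Iglc2 and Iglc3, and the 3 high-fat diet libraries lie below all others for Ighd.

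By share of heavy constant FPKM, Igha held 75.4%, 87.4% and 84.2% in chow, 79.5%, 91.9% and 92.5% with high-fat diet and 83.1%, 89.8% and 89.7% with berberine. These shares overlapped between all groups. The IgG genes together held 9.24% in high-fat diet replicate 1 and between 2.32% and 4.27% in the other 8 libraries. In FPKM, Igha exceeded Ighm 5.76-fold to 13.6-fold in chow, 9.73-fold to 27.2-fold with high-fat diet and 9.69-fold to 16.7-fold with berberine. Ighd per Ighm was lower in the high-fat diet libraries, at 0.372 to 0.409, than in the other 6, at 0.413 to 0.659. A share of FPKM depends on the length of each gene model, and that of Igha includes the exons of the membrane form.

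Igkc, the only kappa constant gene (chr6:70726435-70726966, plus strand), had the highest level of all members. It was at 1404, 2145 and 4402 FPKM in chow, at 1779, 2066 and 1321 FPKM with high-fat diet and at 3916, 4457 and 4453 FPKM with berberine. Chow replicate 3 lay among the berberine libraries, and no high-fat diet library did. Igkc rose between high-fat diet and berberine by a log2 fold change of 1.42 ± 0.38 (adjusted p = 0.0231). Without high-fat diet replicate 1, high-fat diet replicate 3, berberine replicate 2 or berberine replicate 3 the adjusted p was between 0.0586 and 0.0730. Against chow the estimates were -0.75 ± 0.38 for high-fat diet (adjusted p = 0.164) and 0.67 ± 0.37 for berberine (0.544). Without chow replicate 1 the former was -1.06 and was called (adjusted p = 0.0414).

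All 3 lambda constant genes rose between high-fat diet and berberine. Iglc1 (chr16:19061618-19062071, minus strand) was at 45.5, 96.6 and 148 FPKM in chow, at 143, 54.3 and 69.9 FPKM with high-fat diet and at 1019, 777 and 532 FPKM with berberine. Iglc2 was at 54.4, 51.2 and 104 FPKM, at 99.0, 99.1 and 43.5 FPKM and at 218, 325 and 251 FPKM in the same order. Iglc3 was at 26.8, 35.8 and 68.6 FPKM, at 35.8, 13.7 and 34.6 FPKM and at 133, 89.4 and 132.5 FPKM. For each gene every berberine library was above all 6 others, and chow and high-fat diet overlapped. The log2 fold changes of berberine against high-fat diet were 3.21 ± 0.52 for Iglc1 (adjusted p = 0.00264), 1.83 ± 0.37 for Iglc2 (0.00677) and 2.17 ± 0.45 for Iglc3 (0.00801), and these calls held when any 1 library was left out. Against chow they were 2.97 ± 0.51 (adjusted p = 0.142), 1.91 ± 0.37 (0.186) and 1.41 ± 0.44 (0.344), below the threshold in edgeR, while DESeq2 called Iglc1 (adjusted p = 2.13e-07) and Iglc2 (0.000102).

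The 3 lambda variable segments were highest in the berberine libraries as well. Iglv1 was at 36.7, 117 and 106 FPKM in chow, at 148, 86.9 and 53.8 FPKM with high-fat diet and at 1339, 1040 and 525 FPKM with berberine. Iglv2 was at 17.3, 26.6 and 28.9 FPKM, at 77.0, 107 and 19.4 FPKM and at 222, 399 and 172 FPKM in the same order. Again each berberine library was above the other 6, and the remaining groups overlapped. For high-fat diet against chow the estimate of Iglv2 was 1.34 ± 0.56 (adjusted p = 0.0990). It was called higher by DESeq2 (1.34, adjusted p = 0.0345), and by edgeR without high-fat diet replicate 3 (1.78, 0.0114) or without the 3 libraries numbered 3 (1.91, 0.0238). Iglv3 was at 4.75 to 6.78 FPKM in chow, 2.04 to 6.73 with high-fat diet and 13.98 to 17.7 with berberine. Between high-fat diet and berberine Iglv1 rose by 3.43 ± 0.57 on the log2 scale (adjusted p = 0.00300), Iglv3 by 2.23 ± 0.45 (0.00714) and Iglv2 by 2.07 ± 0.57 (0.0246). For Iglv2 the adjusted p rose to 0.0565 when high-fat diet replicate 1 was left out and to 0.0837 when berberine replicate 2 was, which ended the call. Against chow the estimates in berberine were 3.43 ± 0.57 for Iglv1 (adjusted p = 0.127) and 3.41 ± 0.60 for Iglv2 (0.142). DESeq2 called both (adjusted p = 1.22e-08 and 1.48e-07), and edgeR called Iglv2 without high-fat diet replicate 3 (adjusted p = 0.0428).

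Lambda genes held 8.28%, 7.88% and 6.79% of light chain constant FPKM in chow, 13.5%, 7.48% and 10.1% with high-fat diet and 25.9%, 21.1% and 17.1% with berberine. Variable segments gave lambda shares of 6.52% to 8.64%, 9.70% to 14.3% and 23.1% to 30.1%. A chain joins a variable to a constant region, so these shares are not independent of the former. In both measures the 3 berberine libraries were above the other 6. Within lambda, Iglc1 held 58.1% to 74.4% of constant FPKM with berberine, 35.9% to 52.6% in chow and 32.5% to 51.5% with high-fat diet. Iglv1 was the highest lambda variable segment in 8 libraries, and Iglv2 in high-fat diet replicate 2, where it held 54.5%. The mean share of kappa was 92.3% ± 0.769 in chow, 89.6% ± 3.03 with high-fat diet and 78.6% ± 4.44 with berberine (SD, n = 3). Iglv1 and Iglv2 shared 96.7% of aligned bases but no run of 150 bases, the read length. Whether some of their reads were placed on the wrong segment was not tested.

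**Figure D3:**
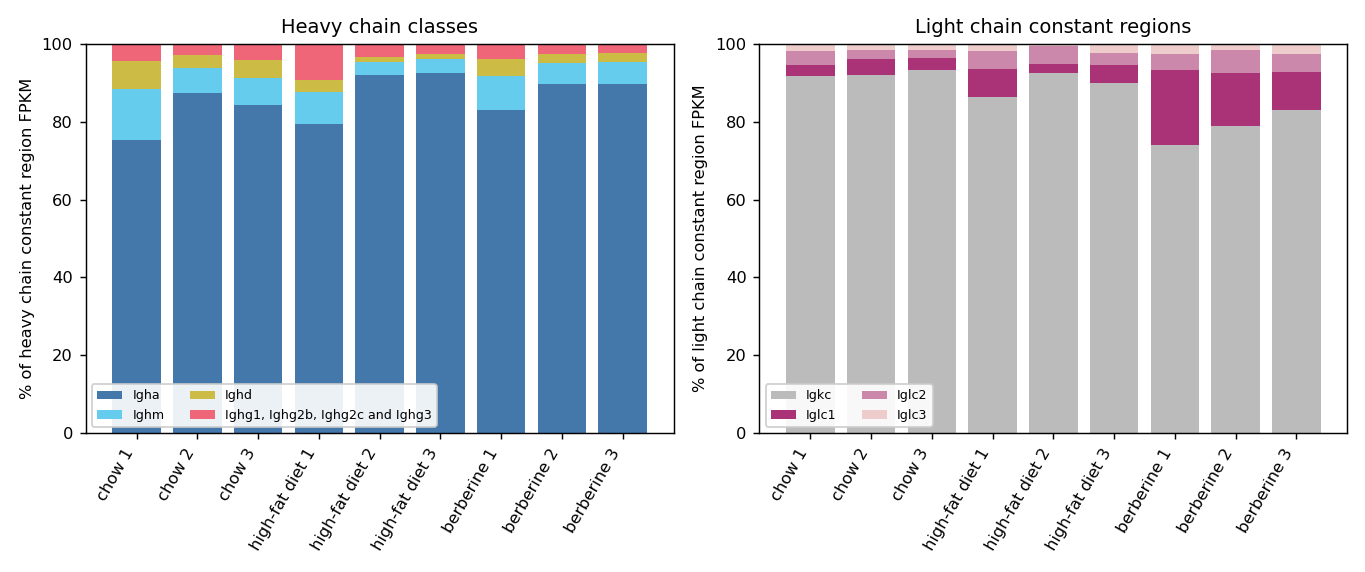
Shares (%) of constant gene FPKM in each library, for heavy chain classes at the left and light chain genes at the right. Igha holds 75.4% to 92.5% in every library, and the lambda genes hold 17.1% to 25.9% in the berberine libraries against 6.79% to 13.5% in the other 6.

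Of the 10 joining segments, 6 rose between high-fat diet and berberine (Ighj4, Igkj2, Igkj3, Igkj4, Igkj5 and Iglj2). Over all tested genes, 15.8% were called higher there. All 10 estimates were positive, with a median log2 fold change of 1.898. Against chow, 3 fell with high-fat diet (Igkj5, Iglj1 and Iglj2), where 16.6% of all tested genes were called lower. Between berberine and chow 0 passed, where 0.0483% of all tested genes did so. Igkj5 was at 7.16, 12.8 and 10.99 FPKM in chow, at 3.57, 3.75 and 0.402 FPKM with high-fat diet and at 21.5, 23.5 and 11.3 FPKM with berberine. Its high-fat diet libraries were below all others, and its fall from chow was -1.89 ± 0.56 (adjusted p = 0.0323), which was lost when chow replicate 2, chow replicate 3 or any high-fat diet library was left out (adjusted p from 0.0518 to 0.0888). Iglj2 was at 23.2, 28.5 and 50.9 FPKM, at 20.01, 17.6 and 10.47 FPKM and at 73.3, 75.2 and 63.4 FPKM in the same order. It fell by -1.21 ± 0.38 (adjusted p = 0.0389), and that call was kept in 1 of 9 fits with a library left out, the one without chow replicate 1. All 38 bases of Iglj2 lie inside an exon of Iglc2 on the same strand, so reads of both genes cannot be told apart there. Iglj1 rested on 1 to 19 counts in every library, at 6.87, 1.02 and 2.26 FPKM in chow, 0.275, 0.798 and 0.705 with high-fat diet and 1.39, 2.13 and 0.904 with berberine. Its change of -2.50 ± 0.78 between chow and high-fat diet (adjusted p = 0.0398) was lost when any library but chow replicate 2 or chow replicate 3 was left out (adjusted p from 0.0509 to 0.144). Igkj3, which lacks the motif in capitals above, was at 6.98 to 8.20 FPKM in chow, 4.39 to 5.14 with high-fat diet and 6.62 to 22.3 with berberine.

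Of 149 variable segments, 35 rose and 0 fell between high-fat diet and berberine, 12 of 64 in the heavy, 20 of 82 in the kappa and 3 of 3 in the lambda locus, where 15.8% of all tested genes were called higher. The heavy share, 18.8%, was near that background. The 10 named members of this comparison were Ighv1-62-2, Ighv1-71, Ighv2-3, Ighv1-15, Ighv12-2, Ighv1-18, Igkv3-1, Iglv1, Igkv12-38 and Igkv11-125, with log2 fold changes from 3.30 to 5.12. Ighv2-3 was at 3.84, 8.55 and 3.09 FPKM in chow, at 1.08, 1.28 and 1.36 FPKM with high-fat diet and at 29.3, 21.5 and 16.2 FPKM with berberine. Its 3 groups did not overlap, and its log2 fold change was 4.23 ± 0.49 between high-fat diet and berberine (adjusted p = 0.000605) and -2.18 ± 0.45 between chow and high-fat diet (0.00788). Ighv1-62-2 was at 2.34, 1.32 and 2.89 FPKM in chow, at 0.183, 0.768 and 0.0740 FPKM with high-fat diet and at 29.0, 4.18 and 1.39 FPKM with berberine. Berberine replicate 1 was far above the other berberine libraries, and the high-fat diet values rested on 2 to 18 counts. The log2 fold change was 5.12 ± 1.24 (adjusted p = 0.0149), and leaving out high-fat diet replicate 1 ended the call with an adjusted p of 0.0532. Ighv1-71, which has the same variable exon, gave 5.07 ± 1.10 (adjusted p = 0.00941), and leaving out 1 library moved this estimate from 3.27 to 5.88.

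Among the other named segments, Ighv1-15 rose between high-fat diet and berberine by 4.13 ± 0.83 (adjusted p = 0.00677) and this call held when any 1 library was left out, with estimates from 3.44 to 4.64. Ighv12-2 (3.76 ± 1.13, adjusted p = 0.0343) lost its call without high-fat diet replicates 1 or 3 or berberine replicates 2 or 3 (adjusted p from 0.0583 to 0.0936). Ighv12-2 had a mean of at least 1 FPKM only with berberine, so it became a member through the group where it is highest. Its rise is therefore given as a description. Ighv1-18 (3.71 ± 1.10, adjusted p = 0.0334) was at 40.8 FPKM in berberine replicate 2 and at 5.56 and 5.18 FPKM in the other berberine libraries. It lost its call without any of the high-fat diet libraries or without berberine replicate 2, where the estimate was 2.05 (adjusted p = 0.139). Igkv12-38 (3.39 ± 1.11, adjusted p = 0.0474) kept its call only without high-fat diet replicate 1, among the 9 fits with a library left out, and Igkv11-125 (3.30 ± 1.02, adjusted p = 0.0392) only without chow replicate 2 or chow replicate 3. Both kappa segments had counts between 0 and 35 in each high-fat diet library.

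Against chow, 1 variable segment rose and 4 fell with high-fat diet, where 15.2% of all tested genes were called higher and 16.6% lower. The share of variable segments called, 3.36%, was below the 31.8% over all tested genes. The segments that fell were Ighv2-3, described above, and 3 members of the Igkv3 family. Igkv3-1 was at 5.41, 15.0 and 7.42 FPKM in chow, at 0.809, 1.23 and 0.418 FPKM with high-fat diet and at 7.03, 12.9 and 6.55 FPKM with berberine. Igkv3-12 was at 30.7, 26.1 and 43.0 FPKM, at 9.76, 10.2 and 4.66 FPKM and at 71.3, 31.0 and 29.6 FPKM in the same order. Igkv3-4 was at 8.57, 25.4 and 39.2 FPKM, at 4.07, 7.96 and 2.20 FPKM and at 17.7, 32.4 and 23.0 FPKM. In all 3 segments the high-fat diet libraries were below the other 6, while chow and berberine overlapped. The log2 fold changes from chow to high-fat diet were -3.60 ± 0.58 for Igkv3-1 (adjusted p = 0.00262), -2.14 ± 0.42 for Igkv3-12 (0.00636) and -2.50 ± 0.62 for Igkv3-4 (0.0165). Igkv3-4 lost its call when high-fat diet replicate 1 was left out, at an adjusted p of 0.0549. These segments shared no run of 150 bases with another segment. Between high-fat diet and berberine the changes were 3.48 ± 0.58 (adjusted p = 0.00298), 2.51 ± 0.43 (0.00342) and 2.47 ± 0.62 (0.0180), and between chow and berberine the estimates were -0.12 ± 0.51, 0.37 ± 0.41 and -0.03 ± 0.59.

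The variable segment that rose with high-fat diet was Ighv3-8. It was at 1.81, 2.24 and 1.42 FPKM in chow, at 12.04, 59.3 and 1.39 FPKM with high-fat diet and at 50.8, 24.4 and 8.46 FPKM with berberine. High-fat diet replicate 2 was highest and replicate 3 lay below every chow library. The log2 fold change of 3.56 ± 1.17 (adjusted p = 0.0463) was called in 1 of 9 fits with a library left out, the one without high-fat diet replicate 3, and was 1.73 without high-fat diet replicate 2 (adjusted p = 0.198).

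The leading heavy variable segment differed between groups. Ighv2-9 was the highest in all 3 chow libraries, with 11.9%, 9.51% and 11.8% of heavy variable FPKM. Ighv3-6 was the highest in all 3 berberine libraries, with 9.04%, 8.55% and 14.2%. With high-fat diet each library had its own: Ighv6-6 at 11.4%, Ighv3-8 at 11.6% and Ighv2-6 at 14.4% in replicates 1 to 3. Ighv3-6 was at 6.97, 26.0 and 10.8 FPKM in chow, at 28.5, 29.3 and 1.498 FPKM with high-fat diet and at 88.1, 109.6 and 62.1 FPKM with berberine. It did not pass the test between berberine and high-fat diet (2.24 ± 0.90, adjusted p = 0.0915) or between berberine and chow (2.51 ± 0.91, adjusted p = 0.390), although its berberine libraries were above the other 6. Ighv2-9 was at 23.4, 36.3 and 35.6 FPKM, at 14.9, 36.3 and 2.46 FPKM and at 56.8, 57.8 and 17.1 FPKM, and overlapped between all groups.

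Igkv1-117 was the highest kappa variable segment in 8 libraries, and Igkv8-19 in berberine replicate 3. Igkv1-117 held 7.56%, 11.6% and 10.2% of kappa variable FPKM in chow, 14.7%, 20.4% and 13.9% with high-fat diet and 16.8%, 12.1% and 10.49% with berberine. Its high-fat diet shares were above all chow shares, and the berberine shares overlapped both. Igkv8-19 held 10.8% in berberine replicate 3 and between 0.394% and 1.95% elsewhere. The effective number of kappa variable segments, which is the number of equally used segments that would give the same concentration of shares, was 32.8 to 34.5 in chow, 15.8 to 24.2 with high-fat diet and 19.8 to 26.7 with berberine. The chow libraries were thus above the other 6. For the heavy chain it was 24.5 to 27.5, 21.6 to 24.5 and 24.1 to 30.2, and the groups overlapped or nearly met.

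**Figure D4:**
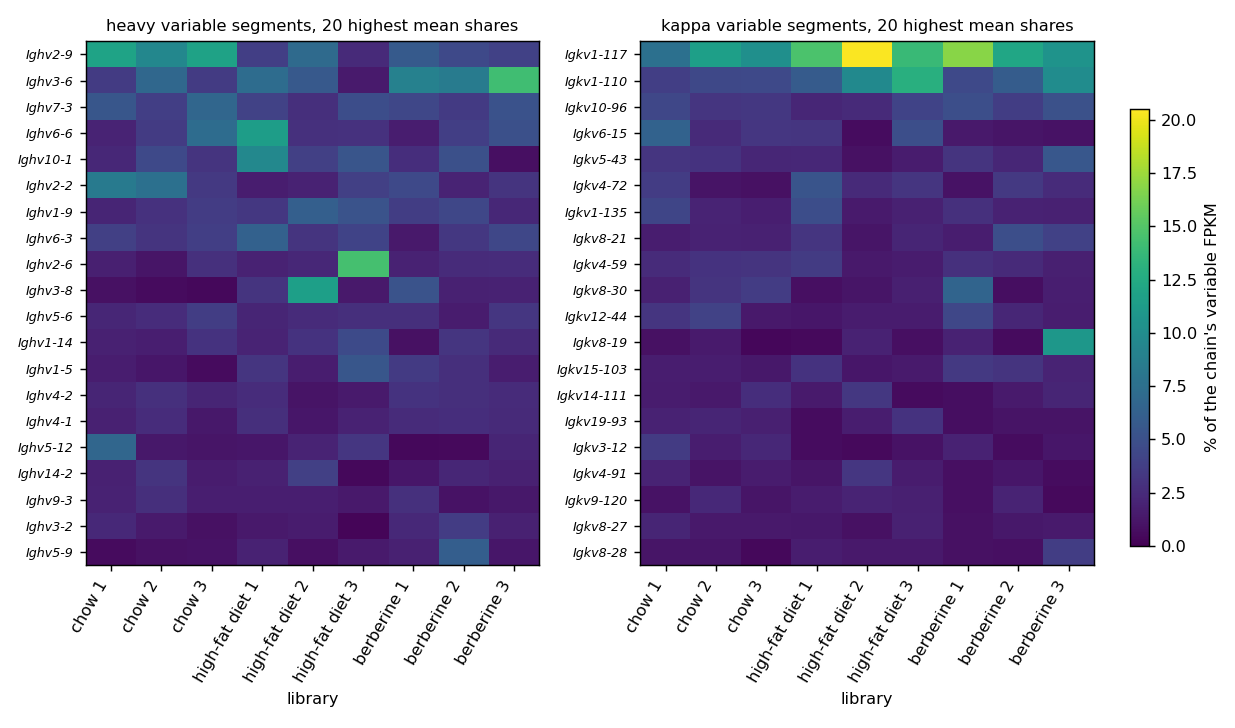
Share (%, colour) of a chain's variable FPKM held by each of the 20 heavy (left) and 20 kappa (right) variable segments with the highest mean shares, in rows, in each of the 9 libraries, in columns. Igkv1-117 is the brightest kappa row, with 20.4% in high-fat diet replicate 2, and Igkv8-19 stands at 10.8% in berberine replicate 3.

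By family, the Igkv3 segments held 9.60% ± 1.01 of kappa variable FPKM in chow, 4.10% ± 0.790 with high-fat diet and 5.22% ± 1.10 with berberine (SD, n = 3). Igkv1 held 19.9% ± 3.11, 30.3% ± 2.98 and 23.3% ± 1.77, and Igkv4, the kappa family with the most members, 19.3% ± 0.813, 18.7% ± 1.14 and 13.5% ± 2.60. The chow values of Igkv3, the high-fat diet values of Igkv1 and the berberine values of Igkv4 each lay apart from the other 6 libraries. The high-fat diet values of Igkv5 were also below the other 6, and those of Igkv16, with 1 member, narrowly above them. Whether such separations exceed what many families would give was not tested. Among heavy families, Ighv3 held 7.88% ± 1.97 in chow, 12.03% ± 7.32 with high-fat diet and 17.2% ± 1.69 with berberine, and Ighv2 held 22.2% ± 1.96, 14.9% ± 7.49 and 14.2% ± 2.45. The high-fat diet libraries spread the most in both of these. Ighv1, with 25 members, held 23.1% ± 0.918, 22.5% ± 3.68 and 22.7% ± 5.33.

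Usage also varied between libraries of a group. The share of heavy variable FPKM that would have to move to another segment to turn 1 library into another was 23.9% to 27.2% between chow libraries, 33.4% to 39.7% between high-fat diet libraries and 26.5% to 30.9% between berberine libraries. Between chow and high-fat diet libraries it was 30.1% to 42.1%, and between chow and berberine libraries 29.4% to 38.9%. For kappa the values within groups were 24.5% to 29.0%, 27.3% to 31.5% and 32.5% to 35.6%, against 29.4% to 40.1% between chow and high-fat diet and 24.5% to 36.9% between chow and berberine. Distances between groups thus overlapped those within high-fat diet or berberine. Of the 149 variable members, 78 had at least 95% identity to another segment over the aligned reference, and 14 shared a run of 150 bases with another, which is the read length. Igkv1-117 was 97.5% identical to Igkv1-110.

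Variable segments stood lower relative to constant genes in the library numbered 3 of each group. Summed variable FPKM per summed constant FPKM of the heavy chain was 0.350, 0.426 and 0.188 in chow, 0.546, 0.582 and 0.155 with high-fat diet and 0.473, 0.551 and 0.237 with berberine. For kappa it was 0.619, 0.729 and 0.421, then 0.780, 0.885 and 0.344, then 0.934, 0.970 and 0.532. For lambda it was 0.478, 0.806 and 0.442, then 0.833, 1.18 and 0.508, then 1.15, 1.22 and 0.776. Replicate 3 was thus the lowest of its group in all 3 chains and all 3 groups. High-fat diet replicate 3 was the lowest of its group for 126 of 149 variable members, and chow replicate 3 was the highest of its group for 11 of 11 constant genes. What these 3 libraries share besides their number is not stated, and its part in the results was not tested. With all 3 left out, 32 members were called higher and 0 lower between high-fat diet and berberine, and 0 between chow and berberine. Over all tested genes, 2829 were called in the first of these fits, 1574 higher and 1255 lower, and 0 in the second. Between chow and high-fat diet 4 members were then higher and 3 lower (Ighv2-3, Igkv3-1 and Igkv3-12), and their median log2 fold change was 0.10 in place of -0.50. The falls of Ighm (-0.70, adjusted p = 0.205) and Ighd (-1.17, adjusted p = 0.0781) were not called there. The count over all tested genes for that comparison without these libraries is not given here.

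**Figure D5:**
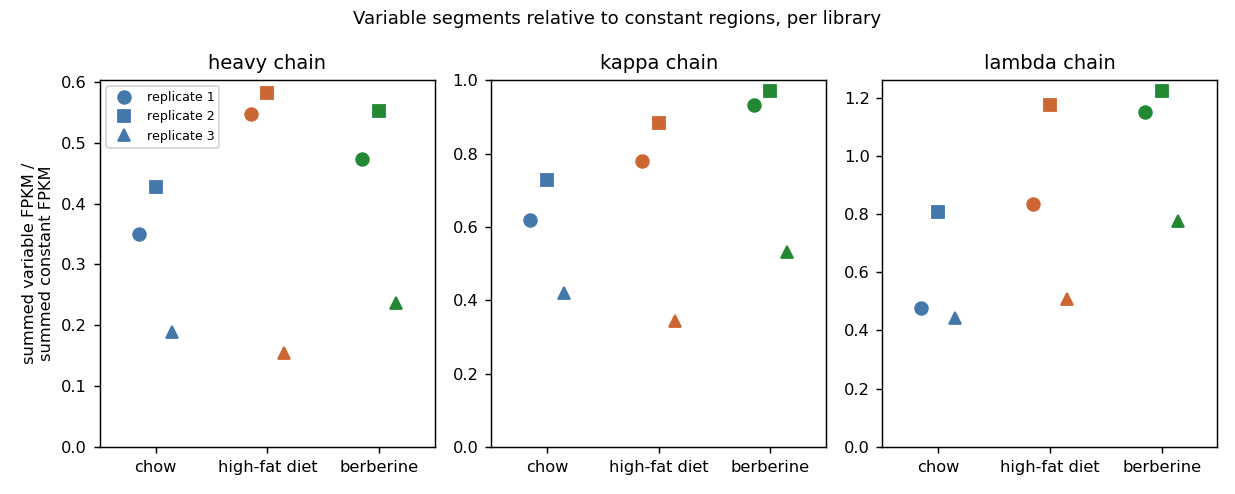
Summed FPKM of variable members divided by summed FPKM of constant members (y axis, from 0) for each chain and library, by group (x axis), with symbols for the replicate number. The triangle, replicate 3, is the lowest of its group in each panel, for example 0.155 against 0.546 and 0.582 for the heavy chain with high-fat diet.

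Genes of the cells that make and carry antibodies were taken from marker lists. Over all tested genes, 15.2% were called higher and 16.6% lower between chow and high-fat diet. Between high-fat diet and berberine these shares were 15.8% and 14.9%. Of 14 B cell genes, among them Ms4a1, Cd79a and Cd22, 13 fell between chow and high-fat diet (median log2 fold change -1.37) and 14 rose between high-fat diet and berberine (median 1.99). Their summed level was 178 to 307 FPKM in chow, 76.3 to 151 with high-fat diet and 280.0 to 547.1 with berberine. Between high-fat diet and berberine Ms4a1, the CD20 gene, rose by 1.77 ± 0.30 (adjusted p = 0.00312) and Fcmr, an IgM receptor, by 2.46 ± 0.40 (0.00279). Like Ighm and Ighd, most of the B cell genes were lower with high-fat diet than in chow and higher with berberine than with high-fat diet, and their part in the results was not tested. Of 6 tested T cell genes, 5 fell between chow and high-fat diet and 6 rose between high-fat diet and berberine. Cd4 rose there by 1.94 ± 0.25 (adjusted p = 0.000950).

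Of 12 plasma cell genes, 1 rose and 2 fell between chow and high-fat diet, and 5 rose and 1 fell between high-fat diet and berberine (medians -0.58 and 1.46). The first of these counts were at or below the shares of all tested genes, 15.2% higher and 16.6% lower, and in the second comparison those shares were 15.8% and 14.9%. Irf4, a factor needed for plasma cells, changed by -1.47 ± 0.33 (adjusted p = 0.0108) in the first comparison and by 2.03 ± 0.34 (0.00297) in the second. Derl3, a protein of the secretory pathway, changed by -1.18 ± 0.39 (0.0477) and 2.57 ± 0.40 (0.00240). The gene that rose in the first comparison and fell in the second was Sdc1 (1.11 ± 0.21 and -1.49 ± 0.21, adjusted p = 0.00529 and 0.00153). Sdc1 is also an epithelial gene, and which cells its change came from was not tested. Jchain was at 38.6, 204.2 and 349.9 FPKM in chow, at 150.3, 220.4 and 121.9 FPKM with high-fat diet and at 162, 596 and 473 FPKM with berberine. Its groups overlapped in every comparison and it did not pass the test (-0.40 ± 0.71, 1.43 ± 0.73 and 1.03 ± 0.72, adjusted p = 0.705, 0.168 and 0.638). Pigr was at 738.2, 654.6 and 350.0 FPKM, at 161, 288 and 164 FPKM and at 683, 917 and 909 FPKM in the same order. It fell between chow and high-fat diet by -1.64 ± 0.35 (adjusted p = 0.00851) and rose between high-fat diet and berberine by 2.14 ± 0.35 (0.00296), with no overlap in either.

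Among 11 tested genes of IgA switching, homing and survival signals, 0 rose and 4 fell between chow and high-fat diet. Of all tested genes, 15.2% were called higher and 16.6% lower there. Between high-fat diet and berberine 6 rose and 0 fell, where 15.8% of all tested genes were called higher and 14.9% lower. Ccl28, a chemokine that draws IgA plasma cells to the colon, was at 38.3, 24.3 and 20.7 FPKM in chow, at 4.94, 5.15 and 2.93 FPKM with high-fat diet and at 25.2, 35.9 and 37.9 FPKM with berberine. Its high-fat diet libraries were below the other 6, with changes of -2.80 ± 0.30 (adjusted p = 0.000464) and 3.04 ± 0.31 (0.000362). Madcam1, an adhesion molecule of mucosal vessels, changed by -1.94 ± 0.30 (adjusted p = 0.00208) and 2.27 ± 0.30 (0.00111). Ccr10, the receptor for Ccl28, rose by 1.88 ± 0.26 between high-fat diet and berberine (adjusted p = 0.00132). Aldh1a1, an enzyme of retinoic acid synthesis, fell by -4.52 ± 0.83 between chow and high-fat diet (adjusted p = 0.00465), and chow replicate 2 held 59.7 FPKM of it against 10.4 and 8.49 in the other chow libraries. Of 9 tested germinal centre genes, 2 fell between chow and high-fat diet and 2 rose between high-fat diet and berberine, in each case Fas and Cxcl13, which is near the 16.6% and 15.8% of all tested genes. Of 7 genes of V(D)J recombination and the pre-B receptor, only Vpreb3 was tested (1.52 ± 0.50 between high-fat diet and berberine, adjusted p = 0.0487), and Rag1 and Vpreb2 were listed at 0 in all 9 libraries.

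Of 10 tested Fc receptor genes, 4 rose and 3 fell between chow and high-fat diet, where 15.2% of all tested genes were called higher and 16.6% lower. Between high-fat diet and berberine 3 rose and 1 fell, where 15.8% of all tested genes were called higher and 14.9% lower. Fcgrt, the neonatal Fc receptor, changed by -1.01 ± 0.20 (adjusted p = 0.00610) and 0.78 ± 0.20 (0.0174). Fcer1a, the IgE receptor alpha chain, was at 24.0, 6.76 and 1.46 FPKM with high-fat diet and was listed at 0 in all chow libraries, so no fold is given. Between berberine and chow, 0 genes of any of the 12 marker lists passed the test in edgeR, where 0.0483% of all tested genes did so.

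Markers of other tissue components varied as well. Their counts stand beside 15.2% of all tested genes called higher and 16.6% lower between chow and high-fat diet. Between high-fat diet and berberine these shares were 15.8% and 14.9%. The 7 epithelial genes summed to 4225 to 5157 FPKM in chow, 3807 to 5049 with high-fat diet and 4344 to 4900 with berberine, so the groups overlapped. Of these only Krt18 was called, 0.83 ± 0.15 between chow and high-fat diet (adjusted p = 0.00421) and -1.42 ± 0.15 between high-fat diet and berberine (0.000449). The 6 smooth muscle genes summed to 1960 to 3145, 406 to 1801 and 1163 to 1419 FPKM, and 3 fell between chow and high-fat diet. The 6 striated muscle genes summed to 489.6 FPKM in chow replicate 3 and to at most 19.8 FPKM elsewhere, and 5 fell between chow and high-fat diet. The 6 adipocyte genes summed to 316 and 236 FPKM in berberine replicates 1 and 2, to 7.24 in berberine replicate 3, to 30.3 to 52.7 in chow and to 5.08 to 14.1 with high-fat diet, and of 5 tested genes 4 rose between high-fat diet and berberine. Berberine replicate 3 was the lowest of its group for 98 of 149 variable, 7 of 11 constant and 10 of 10 joining members. The part of smooth muscle, striated muscle and adipose tissue in the results was not tested.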

How the data were processed

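RNA was sequenced from 9 colonic tissue libraries, 3 in each group. Per the labels' protocols, poly(A) RNA was made into stranded libraries with unique molecular identifiers and read as pairs of 150 bases. The submitters' processing notes name the build GRCm38 and, without their roles, HISAT2 2.0.4, StringTie 1.3.4d, cutadapt 1.9, UMI-tools, edgeR and DESeq2. How reads of rearranged segments were aligned and whether counting used strand are not given in the sources used here. Per the file headers the deposited table holds an estimated count and an FPKM value per gene and library. The counts were whole, with low values piled up at 4, 8, 12 and 16, and FPKM was listed at 0.0001 where the count was 0. Library totals of 51961764 to 69007117 limit counting error only, and do not show the number of molecules.

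The 14506 genes whose FPKM averaged 1 or more were tested on the deposited counts with edgeR 4.0.16 (quasi-likelihood test, TMM scaling, all 9 libraries in 1 fit) in R 4.3.3, with Benjamini-Hochberg adjustment over all of them and a threshold of 0.05. Shares and ratios used FPKM. DESeq2 1.42.0, limma 3.58.1 on log2(FPKM + 1) and log2(FPKM + 0.1), other scalings and filters, counts divided by 4, a replicate block and leaving out libraries were alternatives, and leaving out the 3 libraries numbered 3 was added after seeing the data. All 170 members matched GENCODE M21 by identifier and coordinates. Named were all constant genes, up to 10 called segments per comparison with the largest change and no overlap, the leading variable segment of each library and chain, the rows next to the threshold, and, from the marker lists, Jchain, Pigr and some of the 3 genes of each list with the smallest p in a comparison. Joining segments were described as a class, and Igkj3 and Ighv3-8 were named, after their values were seen. The members and lists were chosen with earlier results of these data known. Not every marker gene so chosen is printed, and a gene of the B cell list is not reported here.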

Additional observations from a re-analysis of the deposited data

How the results depend on the processing

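The count of called members between chow and high-fat diet moved from 11 to 23 with DESeq2 (3 higher, 20 lower), to 6 without a filter on low values, to 7 with filterByExpr and to 7 without the 3 libraries numbered 3. Leaving out 1 library gave 7 to 11 called members there and 25 to 47 in place of 48 between high-fat diet and berberine, of which 24 to 44 were among the 48. Between chow and berberine it gave 0 to 1 in place of 0, and DESeq2 called 23. Over all genes, leaving out 1 library gave 3573 to 4325 calls in place of 4613, 2960 to 4740 in place of 4460 and 1 to 7 in place of 7. Without the libraries numbered 3 there were 2829 calls between high-fat diet and berberine and 0 between chow and berberine. Between chow and berberine there were 2 calls with DESeq2-type size factors, filterByExpr, counts divided by 4, only the 2 groups compared, or the replicate block, and 380 with DESeq2. DESeq2 held 10 of the 11 and 46 of the 48 called members.

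Some estimates that had not been called changed sign. Without the libraries numbered 3, those of high-fat diet against chow were 0.026 for Igha, 0.99 for Ighg3, 0.36 for Ighg2c and 0.31 for Iglc1, and that of Ighg1 for berberine against chow was 0.061. Leaving out 1 library gave, for high-fat diet against chow, -0.54 to 0.78 for Ighg2b, -1.16 to 0.57 for Ighg3, -0.90 to 0.00060 for Ighg2c, -0.76 to 0.17 for Iglc1 and -0.10 to 0.47 for Iglc2, and -0.43 to 0.10 for Ighg1 between chow and berberine. The cause was not tested.

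Libraries with the same replicate number correlated from -0.0986 to 0.160 in 9 pairs, of which 2 were over 0.1, and 4 of 9 libraries correlated best with their own number, so the numbers were not taken as pairs. With the replicate block 11, 45 and 0 members were called in the 3 comparisons. Values that rest on few counts, such as those of Iglj1, are limited by depth.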

Other observations

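Kappa variable segments lie in both orientations relative to Igkc, with 30 members on its strand and 52 on the other. Members on the strand of Igkc held 38.6% to 53.0% of kappa variable FPKM in the 9 libraries.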
